A study of Oryza sativa with 12 samples.

Results

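Laccase genes of rice chromosomes 1 and 2 were followed in the pedicels of a cultivar that shatters its seeds and of one that does not. The genes were taken by locus identifier and are 10 of the 35851 genes listed. The choice sets no threshold on their values, but it was made with earlier results of these data known, LAC7 among them. LOC_Os01g27700, LOC_Os01g44330, LOC_Os01g61160, LOC_Os01g62480, LOC_Os01g62490, LOC_Os01g62600, LOC_Os01g63180, LOC_Os01g63190 and LOC_Os01g63200 carry the number of chromosome 1 in their identifiers, and LOC_Os02g51440 that of chromosome 2. LOC_Os01g63180 is the gene called LAC7 in the paper, and LOC_Os01g63190 and LOC_Os01g63200 bear the locus numbers that follow it. LOC_Os01g62480 and LOC_Os01g62490 have adjacent numbers too. The sources used here call LOC_Os01g62480, LAC7 and LOC_Os01g63190 laccase precursors, whereas the other members are laccases by the list that chose them.

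Laccases are secreted enzymes with copper in the active site that oxidise phenols in the cell wall. In plants they turn monolignols, the alcohols from which lignin is built, into radicals that couple to form the polymer. They form families of paralogs, and in Arabidopsis several members share the lignification of stem vessels and fibres. Lignin in and around the abscission zone of rice is part of how firmly a grain is held, which is why wall enzymes are of interest in shattering.

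RNA was measured in W517, which sheds its grains easily, and in DZ129, which has lost shattering. Both are labelled wild type, each is 1 cultivar, and no agent was applied. A short piece with the abscission zone (AZ) was separated from the rest of the pedicel, the nonabscission zone (NAZ), giving the groups W517AZ, W517NAZ, DZ129AZ and DZ129NAZ with 3 libraries each. All pedicels were of day 10, counted from flowering in the sample labels and from heading in the paper. Because each shattering type is 1 cultivar, shattering and any other difference between the cultivars cannot be told apart. In whole tissue, fewer cells of a type and less RNA per cell cannot be told apart either.

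Values are FPKM, which are fragments per kilobase of gene and scaled to the fragments of the library, so levels of different genes can be compared. Libraries held between 17118435 and 20892526 reads on genes. A gene was tested if it reached 0.5 FPKM in at least 3 libraries, which 23951 genes did, among them 6 of the 10 laccases. Log2 fold changes were fitted by limma on log2(FPKM + 0.1), a scale that understates the change of weakly expressed genes, and adjusted p-values are over all 23951 genes. A difference was called when the adjusted p was below 0.05 and the fold change above 2. Errors are SD with n = 3 for levels and standard errors (SE) for log2 fold changes.

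The laccases fell apart by tissue. LAC7 was higher in the NAZ than in the AZ of both cultivars and higher in W517 than in DZ129 in both tissues. LOC_Os01g61160, LOC_Os01g62490 and LOC_Os01g63190 had the opposite tissue pattern, being lower in the NAZ of both cultivars. LOC_Os01g62480 was highest in W517AZ. LOC_Os01g27700 was read almost exclusively in DZ129.

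**Figure D1:**
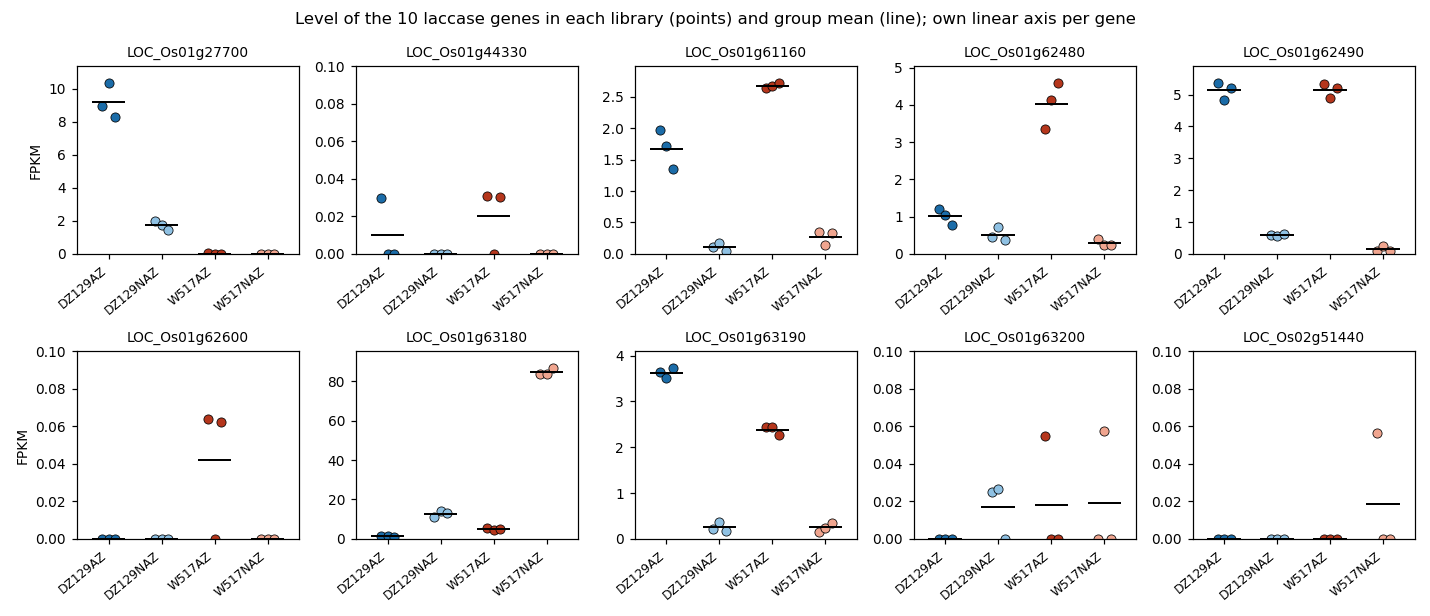
FPKM of the 10 laccases in the 12 libraries. Each point is 1 library, each line the mean of its group, and each panel has its own vertical axis starting at 0. LAC7 (LOC_Os01g63180) lies between 83.5 and 86.7 FPKM in W517NAZ and at most at 14.4 FPKM elsewhere, while LOC_Os01g27700 exceeds 1 FPKM only in DZ129.

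LAC7 had 1.54, 1.42 and 1.06 FPKM in the DZ129AZ libraries 1 to 3 and 5.55, 4.73 and 4.75 FPKM in W517AZ. It had 11.1, 14.4 and 12.9 FPKM in DZ129NAZ and 83.8, 83.5 and 86.7 FPKM in W517NAZ. No library of any group overlapped with those of another, and the order of the groups was DZ129AZ, W517AZ, DZ129NAZ and W517NAZ. The mean was 16.9-fold higher in W517NAZ than in W517AZ, a log2 fold change of 4.06 (SE 0.12, limma adjusted p = 3.2e-12). In DZ129 the NAZ was 9.55-fold above the AZ, with a log2 fold change of 3.17 (SE 0.12, limma adjusted p = 5.3e-11). The tissue difference of LAC7 thus had the same direction in both cultivars.

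Between the cultivars, LAC7 was 3.73-fold higher in W517AZ than in DZ129AZ, with a log2 fold change of 1.84 (SE 0.12, limma adjusted p = 1.5e-08). In the NAZ it was 6.62-fold higher in W517, with a log2 fold change of 2.72 (SE 0.12, limma adjusted p = 2.4e-10). The tissue difference in W517 exceeded that in DZ129 by 0.89 on the log2 scale (SE 0.17, limma adjusted p = 0.0011). This last value depended on the scaling, since it was 0.38 with an adjusted p of 0.12 under quantile normalization. The calls of LAC7 between groups were kept in all settings tried. DZ129AZ libraries had 54 to 78 reads of the gene and W517NAZ libraries 3688 to 3966. Of 5 listed green tissue markers, 4 were higher in the NAZ in W517 and 1 in DZ129, against 12.4% and 9.84% of all genes. They summed to 1872–1979 FPKM in W517AZ, 6830–6962 FPKM in W517NAZ, 3101–3488 FPKM in DZ129AZ and 5799–5974 FPKM in DZ129NAZ. Their part in the LAC7 difference was not tested.

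LOC_Os01g63190, the next locus after LAC7, had the reverse tissue pattern. It had 3.65, 3.52 and 3.72 FPKM in DZ129AZ and 2.44, 2.44 and 2.27 FPKM in W517AZ. It had only 0.210, 0.372 and 0.168 FPKM in DZ129NAZ and 0.142, 0.244 and 0.356 FPKM in W517NAZ. Every AZ library was above every NAZ library, and the NAZ groups overlapped with each other. The NAZ mean was 9.62-fold lower than the AZ mean in W517, with a log2 fold change of −2.88 (SE 0.25, limma adjusted p = 1.6e-07). It was 14.5-fold lower in DZ129, with a log2 fold change of −3.46 (SE 0.25, limma adjusted p = 2.9e-08). In the AZ the cultivars did not overlap, with W517 lower by a log2 fold change of −0.59 (SE 0.25, limma adjusted p = 0.048), which is short of the fold required for a call. In the NAZ the log2 fold change between the cultivars was −0.01 with a 95% interval from −0.55 to 0.52. The third locus in a row, LOC_Os01g63200, had at most 2 reads in a library.

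LOC_Os01g62490 had nearly equal mean levels in the AZ of both cultivars, and a lower level in the NAZ of W517 than in that of DZ129. Its AZ levels were 5.35, 4.84 and 5.21 FPKM in DZ129 and 5.32, 4.88 and 5.22 FPKM in W517. Its NAZ levels were 0.606, 0.574 and 0.621 FPKM in DZ129 and 0.106, 0.251 and 0.102 FPKM in W517. The AZ groups overlapped, and the log2 fold change between them was 0.00 with a 95% interval from −0.42 to 0.42. In the NAZ, W517 was 3.93-fold lower than DZ129, with a log2 fold change of −1.52 (SE 0.20, limma adjusted p = 1.1e-05), on 4 to 10 reads per library in W517 and 25 to 28 in DZ129. This call was lost, for want of fold, with pseudocounts of 0.5 and 1 and under quantile normalization, where the log2 fold changes were −0.76, −0.48 and −0.83. The NAZ was 33.7-fold below the AZ in W517 (log2 fold change −4.42, SE 0.20, limma adjusted p = 1.5e-10). It was 8.55-fold below the AZ in DZ129 (log2 fold change −2.90, SE 0.20, limma adjusted p = 1.6e-08). The difference between these tissue changes was −1.52 on the log2 scale (SE 0.28, limma adjusted p = 6.4e-04), so the fall towards the NAZ was the larger one in W517. Its size depended on the setting, from −1.99 with voom on reads to −0.48 with a pseudocount of 1, both still significant.

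LOC_Os01g62480, the neighbour by number, stood out in W517AZ. It had 3.34, 4.14 and 4.58 FPKM there and 1.22, 1.04 and 0.780 FPKM in DZ129AZ. It had 0.461, 0.710 and 0.378 FPKM in DZ129NAZ and 0.394, 0.241 and 0.244 FPKM in W517NAZ. Each W517AZ library was above every library of the other groups, and the NAZ groups overlapped. W517AZ was 3.97-fold above DZ129AZ, with a log2 fold change of 1.90 (SE 0.24, limma adjusted p = 1.2e-05). Within W517 the NAZ was 13.7-fold lower than the AZ (log2 fold change −3.40, SE 0.24, limma adjusted p = 2.5e-08). The DZ129 tissues differed by a log2 fold change of −0.87 (SE 0.24, limma adjusted p = 0.0066), which was short of a 2-fold change. It became a call without DZ129AZ replicate 3, at −1.03, and without DZ129NAZ replicate 2, at −1.08. With all libraries, the other settings gave −0.98 to −0.19, with a limma adjusted p of up to 0.50. The tissue change in W517 was larger than that in DZ129 by −2.54 on the log2 scale (SE 0.35, limma adjusted p = 6.4e-05), and by −1.54 with a pseudocount of 1, still significant. Between the NAZ groups the log2 fold change was −0.64 (SE 0.24, limma adjusted p = 0.032), without a call. Other settings gave −0.77 to −0.0086 for it, with a limma adjusted p of up to 0.98.

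LOC_Os01g61160 shared the AZ preference in both cultivars. It had 1.97, 1.72 and 1.34 FPKM in DZ129AZ and 2.64, 2.67 and 2.71 FPKM in W517AZ. It had 0.118, 0.175 and 0.0483 FPKM in DZ129NAZ and 0.345, 0.137 and 0.332 FPKM in W517NAZ, from 2 to 12 reads per library. The AZ libraries were above all NAZ libraries, and the cultivars did not overlap in the AZ. The log2 fold change of NAZ against AZ was −2.96 in W517 (SE 0.28, limma adjusted p = 4.6e-07). It was −3.09 in DZ129 (SE 0.28, limma adjusted p = 3.6e-07), and the difference between the cultivars was 0.13 with a 95% interval from −0.73 to 0.99. W517 against DZ129 gave 0.66 in the AZ (SE 0.28, limma adjusted p = 0.052) and 0.78 in the NAZ (SE 0.28, limma adjusted p = 0.023), neither of them a call. Under quantile normalization both became calls, at 1.05 and 1.43, and the NAZ value also did with voom on reads, at 1.22, and without W517NAZ replicate 2, at 1.08. With pseudocounts of 0.5 and 1 the NAZ value fell to 0.32 and 0.19 (limma adjusted p = 0.059 and 0.11). Without DZ129AZ replicate 3 the AZ value was 0.52 (limma adjusted p = 0.17). With a pseudocount of 1 the tissue changes of the AZ genes shrank but were still called. In W517 they were then −1.54 for LOC_Os01g61160, −1.44 for LOC_Os01g63190, −1.95 for LOC_Os01g62480 and −2.41 for LOC_Os01g62490. In DZ129 they were −1.26 for LOC_Os01g61160 and −1.89 for LOC_Os01g63190.

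Of 7 listed grain storage markers, 7 were lower in the NAZ of W517 and 6 in that of DZ129, against 21.3% and 18.2% of all genes. In the AZ 7 were higher in W517 than in DZ129 and in the NAZ 6, against 10.6% and 10.0%. They summed to 37961–38495 FPKM in W517AZ, 4068–4882 FPKM in W517NAZ, 3710–4303 FPKM in DZ129AZ and 908–1007 FPKM in DZ129NAZ. None of the 7 was at 0 in all libraries of a group, but LOC_Os05g26240 was hardly read in DZ129. It ranged from 0 to 0.163 FPKM in DZ129AZ and from 0 to 0.0772 FPKM in DZ129NAZ, against a mean of 11.8 FPKM in W517AZ. The part of these markers in the AZ preference of the laccases was not tested. Against DZ129AZ, the log2 fold change of W517AZ was 1.90 for LOC_Os01g62480 and −6.40 for LOC_Os01g27700, both of them calls. It was 0.66 for LOC_Os01g61160, 0.00 for LOC_Os01g62490 and −0.59 for LOC_Os01g63190, without a call.

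LOC_Os01g27700 separated the cultivars most clearly. It had 8.96, 10.3 and 8.26 FPKM in DZ129AZ and 2.02, 1.75 and 1.42 FPKM in DZ129NAZ. In W517 it had 1 read in W517AZ replicate 1, equal to 0.0317 FPKM, and 0 reads in the other 5 libraries. The 3 DZ129AZ libraries held 883 reads against 1 in W517AZ, a ratio of 878 after scaling to library totals with an exact 95% interval from 157 to 34713 that covers counting error only. DZ129NAZ held 175 reads against 0 in W517NAZ. Set against 3 reads over the group, the limit that a count of 0 allows, the level was 50.7-fold higher in DZ129. This value takes the 175 reads without counting error. Reads of both cultivars were mapped to 1 reference genome, and whether they map to this gene equally well was not tested. Both cultivar differences were calls (limma adjusted p = 6.5e-12 in the AZ and 4.0e-10 in the NAZ). Within DZ129 the NAZ was 5.31-fold below the AZ, with a log2 fold change of −2.35 (SE 0.20, limma adjusted p = 1.5e-07). In W517 both tissues were at or below the limit of detection, so no fold is given. The difference between the tissue changes, 2.22 on the log2 scale (SE 0.28, limma adjusted p = 3.2e-05), therefore compares a fall in DZ129 with a gene that was hardly read in W517. With voom on reads the difference was no longer significant, with an adjusted p of 0.081.

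The remaining 4 laccases were at the edge of detection and were not tested. LOC_Os01g44330 had 3 reads in all 12 libraries, LOC_Os01g62600 had 2, LOC_Os01g63200 had 6 and LOC_Os02g51440 had 1. The highest level of any of them in a library was 0.0640 FPKM. In a group without a read, the limit that a count of 0 allows, 3 reads over the group, corresponds to 0.0269 to 0.0696 FPKM for these genes. LOC_Os02g51440, the only member on chromosome 2, was read in W517NAZ replicate 1 alone. Differences between groups were not detectable at this depth for these 4 genes.

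Of the 10 laccases 6 were tested, so the counts below are out of 6. W517AZ vs. DZ129AZ gave 2 higher genes, LAC7 and LOC_Os01g62480, and 1 lower gene, LOC_Os01g27700. Of all tested genes 27.1% were called there, 10.6% higher and 16.4% lower. W517NAZ vs. DZ129NAZ gave 1 higher gene, LAC7, and 2 lower genes, LOC_Os01g27700 and LOC_Os01g62490, against 27.7% of all genes, 10.0% higher and 17.7% lower. W517NAZ vs. W517AZ gave 1 higher and 4 lower genes, against 12.4% higher and 21.3% lower among all genes. DZ129NAZ vs. DZ129AZ gave 1 higher and 4 lower genes, against 9.84% higher and 18.2% lower. LAC7 was the higher gene in each tissue comparison. The 4 lower genes were LOC_Os01g61160, LOC_Os01g62490 and LOC_Os01g63190 in both cultivars, joined by LOC_Os01g62480 in W517 and by LOC_Os01g27700 in DZ129. Of all tested genes, 14.3% were called lower in the NAZ of both cultivars and 6.57% higher in both. Tissue changes differed between the cultivars for 4 laccases, 2 in each direction, against 43.4% of all genes, 22.0% with a positive and 21.4% with a negative difference. Groups without overlap were common, with 73.4%, 73.8%, 73.0% and 73.2% of all tested genes in the 4 comparisons in this order. The 4 comparisons share libraries, since each group enters 2 of them.

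**Figure D2:**
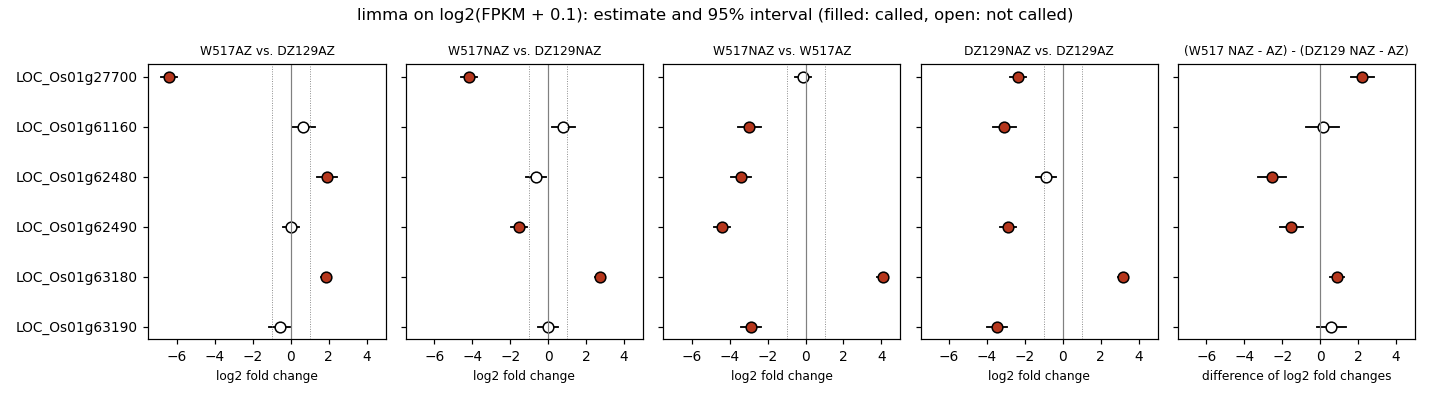
Log2 fold changes of the 6 tested laccases in the 4 comparisons and in the interaction (the tissue change of W517 less that of DZ129). Points are limma estimates on log2(FPKM + 0.1), filled where called, bars are their 95% intervals and dotted lines mark a 2-fold change. LAC7 (LOC_Os01g63180) lies at 4.06 and 3.17 in the tissue comparisons, where the point estimates of the other laccases lie below 0. That of LOC_Os01g27700 in W517 is −0.13 with a 95% interval from −0.56 to 0.29, and it rests on a single read.

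Added up, the 10 laccases had a somewhat lower level in W517AZ than in DZ129AZ, without overlap, and a far higher level in W517NAZ. Their summed level was 22.0 ± 1.38 FPKM in DZ129AZ, 19.3 ± 0.407 in W517AZ, 16.0 ± 1.76 in DZ129NAZ and 85.7 ± 1.77 in W517NAZ (SD, n = 3). Without LAC7 the sums were 20.6 ± 1.15, 14.3 ± 0.496, 3.23 ± 0.517 and 1.002 ± 0.0628 FPKM in the same order. The high sum of W517NAZ was thus that of LAC7, while the sum of the other 9 genes was lower in every NAZ library than in every AZ library. LAC7 made up 5.21% to 6.76% of the sum in DZ129AZ and 24.2% to 28.5% in W517AZ. Its share was 76.3% to 83.1% in DZ129NAZ and 98.8% to 98.9% in W517NAZ. In DZ129AZ the main laccase of the set was LOC_Os01g27700, with 39.5% to 45.1%.

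**Figure D3:**
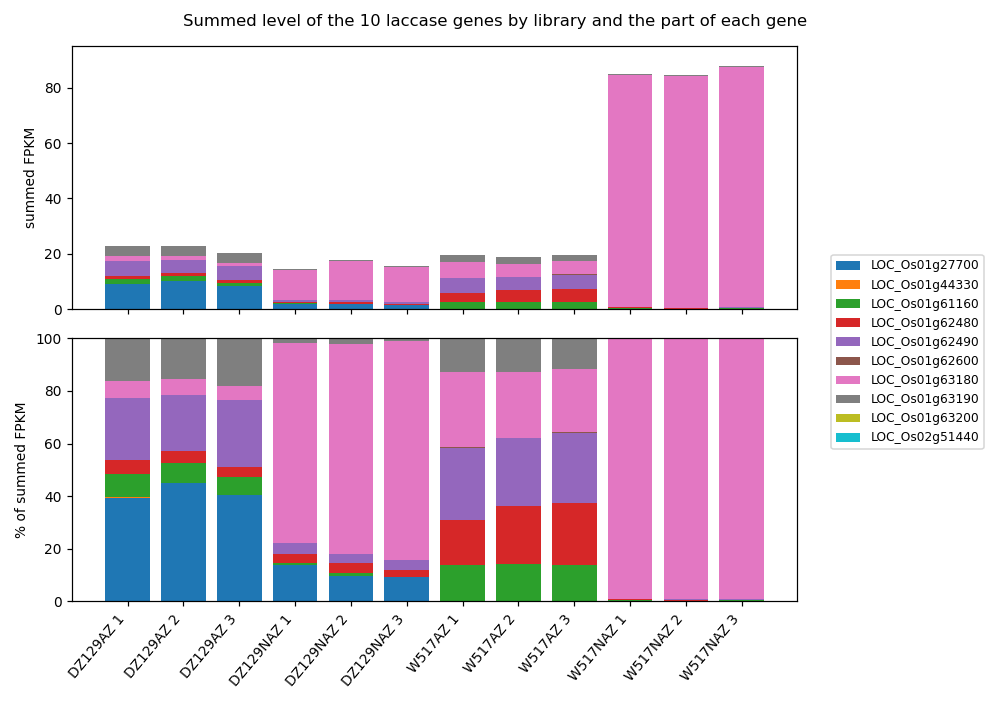
Summed FPKM of the 10 laccases in each library (top) and the percentage of that sum held by each gene (bottom). Bars stand for single libraries and both axes start at 0. LAC7 (LOC_Os01g63180) holds at least 98.8% of the sum in W517NAZ and at most 6.76% in DZ129AZ.

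The order of the genes by FPKM changed from group to group. In DZ129AZ it ran from LOC_Os01g27700 at 9.18 ± 1.04 through LOC_Os01g62490 at 5.13 ± 0.263, LOC_Os01g63190 at 3.63 ± 0.106 and LOC_Os01g61160 at 1.68 ± 0.313 to LAC7 at 1.34 ± 0.247 and LOC_Os01g62480 at 1.01 ± 0.220. The last 3 overlapped with their neighbours in that order. In W517AZ, LOC_Os01g62490 at 5.14 ± 0.234 and LAC7 at 5.01 ± 0.467 overlapped and were followed by LOC_Os01g62480 at 4.02 ± 0.625, LOC_Os01g61160 at 2.67 ± 0.0378 and LOC_Os01g63190 at 2.38 ± 0.0990, which did not. In DZ129NAZ, LAC7 at 12.8 ± 1.63 was followed by LOC_Os01g27700 at 1.73 ± 0.300, and all others had means of at most 0.600. In W517NAZ, LAC7 at 84.7 ± 1.73 stood above 4 genes with means of 0.153 to 0.293 that overlapped with their neighbours.

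Over the 12 libraries, LAC7 ran against the other laccases, with Pearson correlations of log2(FPKM + 0.1) of −0.93 with LOC_Os01g62490, −0.86 with LOC_Os01g63190, −0.67 with LOC_Os01g61160 and with LOC_Os01g27700, and −0.60 with LOC_Os01g62480. LOC_Os01g61160 and LOC_Os01g63190 had a correlation of 0.92. These points are 4 groups of 3 libraries, so the values describe the group pattern and no more. The 3 genes whose pattern was most like that of LAC7 were LOC_Os02g36190, LOC_Os06g20790 and LOC_Os03g04060, with correlations of 0.999, 0.997 and 0.996. LOC_Os02g36190 is listed as a cytochrome P450 and had mean levels of 7.77 FPKM in DZ129AZ, 18.2 in W517AZ, 29.1 in DZ129NAZ and 90.6 in W517NAZ. Such patterns were not rare, since 459 of 23950 genes had a correlation above 0.95 with LAC7 and 37 had one above 0.99.

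LAC7 was compared with laccase loci elsewhere in the genome, taken from a list made from general knowledge that the files do not annotate. Of 16 such loci 13 were among the genes measured and 9 were tested. The 2 with the highest mean, LOC_Os03g16610 and LOC_Os12g15530, had the AZ pattern. LOC_Os03g16610 had 254 ± 8.04 FPKM in W517AZ and 12.5 ± 0.334 in W517NAZ, and its tissue change was −4.34 in W517 and −4.33 in DZ129 on the log2 scale. The change of LOC_Os12g15530 was −4.14 in W517 and −4.44 in DZ129. In W517 the NAZ was higher for 2 of the 9 and lower for 5, against 12.4% and 21.3% of all genes. In DZ129 it was higher for 1 and lower for 6, against 9.84% and 18.2%. LOC_Os11g42200, named here after its values were seen, was close to LAC7 with a correlation of 0.993, and its tissue changes were 3.09 in W517 and 3.03 in DZ129. The difference between these was 0.06 (limma adjusted p = 0.76). For LAC7 it was 0.89, and 0.38 under quantile normalization (limma adjusted p = 0.12). These 2 genes were not tested against each other.

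Summed over these 23 laccase loci, the level was 227 to 232 FPKM in DZ129AZ, 406 to 427 FPKM in W517AZ, 45.0 to 53.0 FPKM in DZ129NAZ and 206 to 219 FPKM in W517NAZ. The 10 genes of chromosomes 1 and 2 held 8.88% to 10.1% of the sum in DZ129AZ, 4.56% to 4.80% in W517AZ, 30.3% to 33.9% in DZ129NAZ and 40.1% to 41.2% in W517NAZ. LAC7 was therefore a large part of the listed laccase transcripts only in the NAZ, where it held 24.7% to 27.1% in DZ129 and 39.6% to 40.7% in W517. In the AZ it held at most 1.37%. LOC_Os11g42200 had higher means than LAC7 in the NAZ. They were 22.1 FPKM in DZ129NAZ and 100.5 FPKM in W517NAZ, against 12.8 and 84.7 FPKM for LAC7. Like LAC7, LOC_Os11g42200 was called higher in W517 than in DZ129, 4.46-fold in the AZ and 4.56-fold in the NAZ.

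**Figure D4:**
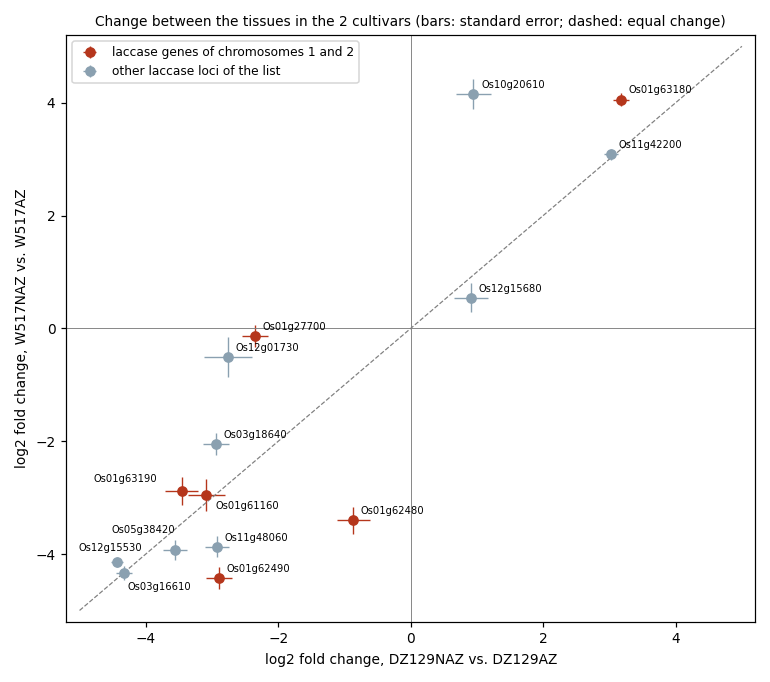
Tissue change (log2 fold change, NAZ vs. AZ) in DZ129 on the horizontal axis and in W517 on the vertical axis for the 6 tested laccases of chromosomes 1 and 2 and the 9 tested loci elsewhere. Bars are standard errors and the dashed line marks equal change. LAC7 (LOC_Os01g63180) lies at 3.17 and 4.06, LOC_Os01g62480 at −0.87 and −3.40, and the W517 value of LOC_Os01g27700 rests on a single read.

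Genes listed for the synthesis of monolignols, the substrates of laccases, did not share 1 tissue pattern. The list holds 24 loci assigned from general knowledge, all of them tested. The NAZ was higher than the AZ for 4 and lower for 9 in W517, against 12.4% and 21.3% of all genes, with a median log2 fold change of −0.33 against −0.13 over all genes. In DZ129 it was higher for 5 and lower for 11, against 9.84% and 18.2%, with a median of −0.87 against −0.09. Between the cultivars, W517AZ was higher than DZ129AZ for 1 and lower for 5, against 10.6% and 16.4% of all genes. W517NAZ was higher than DZ129NAZ for 3 and lower for 6, against 10.0% and 17.7%. Among the loci with the highest mean at each enzyme step, LOC_Os10g36848 rose from AZ to NAZ as LAC7 did, by a log2 fold change of 2.37 in W517 and 1.93 in DZ129. LOC_Os02g09490 rose by 1.41 and 1.25. LOC_Os02g41630 fell by 2.18 and 1.67, and LOC_Os02g08100 fell by 1.65 and 1.46.

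Known regulators of the abscission zone were compared between the tissues too. With so few calls they do not serve as a check of the dissection. Of 7 such loci, again listed from general knowledge, 2 were called lower in W517NAZ than in W517AZ, where 21.3% of all genes were. LOC_Os04g57530 had 0.941 ± 0.0920 FPKM in W517AZ and 0.174 ± 0.161 in W517NAZ, and LOC_Os05g38120 had 23.2 ± 0.307 and 9.86 ± 0.863. LOC_Os07g03770 went the other way without a call, with 74.8 ± 6.27 in W517AZ and 132 ± 4.32 in W517NAZ. Between the DZ129 tissues their log2 fold changes ranged from −0.86 to 0.57, all short of the 2-fold change required for a call, which 18.2% of all genes passed as lower and 9.84% as higher. Levels in DZ129 did not overlap between the tissues for several of them, as was so for 73.2% of all tested genes. LOC_Os07g13170 had 23.5 ± 0.945 FPKM in DZ129AZ and 12.9 ± 0.0829 in DZ129NAZ, and LOC_Os05g38120 had 26.4 ± 0.446 and 15.3 ± 1.28. LOC_Os01g62920 had 21.2 ± 0.278 and 15.0 ± 0.0738, and LOC_Os04g55560 had 19.3 ± 0.0750 and 14.4 ± 1.27. These 4 were higher in every AZ library, whereas LOC_Os07g03770 was higher in every NAZ library, with 82.7 ± 1.09 in DZ129AZ and 123 ± 0.866 in DZ129NAZ. LOC_Os07g10690 and LOC_Os04g57530 overlapped between the DZ129 tissues.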

How the data were processed

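RNA of 12 pedicel libraries was analysed. Per the paper's methods, the authors trimmed reads with Trimmomatic, mapped them to MSU-RGAP 7.0 with HISAT2, counted them with HTSeq and computed FPKM with Cufflinks. Versions are not given in the sources used here, nor is the treatment of reads that fit several paralogs. The deposited values are FPKM for 35851 genes. Rows were taken by locus identifier, and no coordinates or sequences were used.

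A single limma-trend model (limma 3.58.1, R 4.3.3) held all groups, on FPKM logged after adding 0.1. Its 23951 genes reached 0.5 FPKM in 3 libraries or more, and Benjamini-Hochberg adjustment ran over all of them. The interaction is the NAZ minus AZ difference of W517 less that of DZ129, at adjusted p below 0.05 without a limit on size. The deposited FPKM were whole reads divided by gene length and library total for 100% of genes (tolerance 0.01 reads, lengths of 150 to 20000 bp). These reads gave depth, counting limits and an alternative test (voom). For genes with very few reads the true number may be a multiple of the one recovered. Depth sums were within 0.00444% of the totals implied by the FPKM. Intervals and limits from reads cover counting error only. On simulated data, 99.6% of 3000 genes got their exact reads, and limma recovered 96.9% of changed genes in W517NAZ vs. DZ129NAZ, 95.3% in W517NAZ vs. W517AZ, and for the interaction 89.1%, among 23024 genes.

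The labels do not say whether replicates were separate plants or pools, so p-values measure the spread between these libraries. Replicates correlated at 0.989 to 0.991, and no pair agreed within sampling noise. Members, lists and tests were chosen with earlier results of these data known. Named are all 10 members, the 3 genes most correlated with LAC7 (which is also the member with the highest mean), the 2 other laccases with the highest mean, and the locus with the highest mean at each monolignol step, of which examples are given. The laccase, monolignol, marker and regulator lists come from general knowledge. Alternatives were larger pseudocounts (0.5 and 1), quantile normalization or median-ratio scaling, voom, a replicate block, models of only the libraries compared, a filter at 1 FPKM or none, and leaving out each library. Figures were drawn with matplotlib 3.10.9 in Python 3.11.15, and tables were made with scipy 1.17.1, pandas 2.3.3 and numpy 2.4.6.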

Additional observations from a re-analysis of the deposited data

Results flagged for a closer look

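For 4 of the 6 tested laccases the change from AZ to NAZ differed between the cultivars by the test of that difference itself. On the log2 scale, the NAZ minus AZ value of W517 less that of DZ129 was 2.22 for LOC_Os01g27700, −2.54 for LOC_Os01g62480, −1.52 for LOC_Os01g62490 and 0.89 for LOC_Os01g63180 (LAC7). LOC_Os01g27700 was hardly read in W517, where no tissue change could be measured. LOC_Os01g62480 and LOC_Os01g62490, whose locus numbers are adjacent, both had the larger fall in W517. With a pseudocount of 1 these 2 values were −1.54 and −0.48, and that of LAC7 was 0.38 without significance under quantile normalization. The value of LOC_Os01g27700 missed significance with voom on reads (adjusted p = 0.081). Of all tested genes, 43.4% passed the same test. The cause was not tested.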

How the results depend on the processing

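Calls of the 10 laccases ranged from 3 to 4 in W517AZ vs. DZ129AZ, 2 to 4 in W517NAZ vs. DZ129NAZ, 5 to 5 in W517NAZ vs. W517AZ, 5 to 6 in DZ129NAZ vs. DZ129AZ and 3 to 5 in the interaction. Of 264 single values under other settings 5 lost the call, 6 gained it and 5 changed sign, and of 360 values without 1 library 3 gained it and 8 changed sign. The sign changes were in 3 values that lay between −0.01 and 0.13. The interaction of LOC_Os01g61160 was −0.23 and −0.28 with pseudocounts of 0.5 and 1 and ran from −0.11 to 0.42 without 1 library. LOC_Os01g62490 in the AZ was −0.00011 with voom and ran from −0.039 to 0.038 without 1 library. LOC_Os01g63190 in the NAZ was 0.040 with median-ratio scaling, 0.59 with quantile normalization (adjusted p = 0.044) and −0.23 to 0.22 without 1 library. Its interaction became significant with pseudocounts of 0.5 and 1 and quantile normalization, at 0.52, 0.45 and 0.93. Over all genes, a pseudocount of 1 lowered the calls from 6480 to 4214 in W517AZ vs. DZ129AZ, from 6635 to 4056 in W517NAZ vs. DZ129NAZ and from 6712 to 4385 in DZ129NAZ vs. DZ129AZ. Quantile normalization shifted the median of all genes by 0.12 to 0.19, and the share of higher genes among the calls went from 39.3%, 36.2%, 36.9% and 35.1% to 51.8%, 52.2%, 50.8% and 49.5%. Libraries with the same replicate number did not deviate together (correlations of −0.043 to 0.018), so no shared effect of the number was seen. Such correlations cannot tell whether tissues of the same number came from the same plants. With the replicate block, the calls were 6478, 6643, 8079 and 6714 over all genes in the 4 comparisons and 10157 in the interaction, and the counts of laccases called stayed at 3, 3, 5, 5 and 4. Few reads limit the NAZ values of most laccases, with at most 15 reads per library for LOC_Os01g61160 and LOC_Os01g63190 and 0 for LOC_Os01g27700 in W517NAZ.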
